A study of Mus musculus with 46 samples.

Results

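The genes of de novo DNA methylation, Dnmt3a, Dnmt3b and Dnmt3l, were followed together with Tet2 in mouse embryos with and without Rbbp5. They were chosen by name, with earlier results of these data known, and all 4 were found among the 7182 genes of the deposited expression table. Their RNA was compared between wild-type (WT) and Rbbp5 knockout (KO) embryos at embryonic day (E) 3.5, 4.5 and 5.5.

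Methylation of cytosine in CG dinucleotides (CpG) is largely erased in the preimplantation embryo and laid down again around implantation, when the inner cell mass gives rise to the epiblast. DNMT3A and DNMT3B are the enzymes that methylate new sites. DNMT3L has no catalytic activity of its own and stimulates both enzymes. TET2 works in the opposite direction, since it oxidises 5-methylcytosine and so opens the way to demethylation. RBBP5 belongs to the core of the enzyme complexes that place methyl groups on lysine 4 of histone H3 (H3K4), and the DNMT3 proteins bind the H3 tail when that lysine is unmethylated.

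All KO embryos were made from injected zygotes, either wild-type zygotes given Cas9 mRNA with a guide RNA against Rbbp5 or Rbbp5 flox/flox zygotes given Cre mRNA. Which method made which library, the strain, and whether WT zygotes were injected are not given in the sources used here. Blastocysts grew in KSOM medium, and E5.5 embryos had been transferred to pseudopregnant females at the 2-cell stage. The inner cell mass (ICM) of single E3.5 blastocysts, isolated by immunosurgery, was sequenced in 7 WT and 7 KO embryos, and the hand-dissected epiblast of E5.5 embryos in 3 of each genotype. At E4.5 the libraries are single cells, of epiblast (7 WT, 3 KO) and of primitive endoderm (1 WT, 2 KO). Methylomes of single E4.5 epiblast cells number 2 per genotype.

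RNA levels are in FPKM, which divides fragments by transcript length and library total, so levels may be compared between genes. FPKM does not give sequencing depth, which is unknown here. WT ICM libraries had 5110 to 5718 genes at 1 FPKM or more and KO ICM libraries 3628 to 5136, and the E5.5 libraries had 5738 to 5805 in WT and 5457 to 5895 in KO. The targeted gene was not analysed here and gives no check of the genotype labels. Of the ICM libraries, WT 1 stood apart by its trophectoderm markers, which summed to 835.7 FPKM against at most 190.9 FPKM in the other WT libraries. The E3.5 and E5.5 libraries were tested with limma on log2(FPKM + 1) over genes averaging 1 FPKM or more in the libraries compared, and genes with a Benjamini-Hochberg adjusted p under 0.05 were called. All 4 genes passed that filter in each of the 5 comparisons. In bulk samples, fewer cells of a type and less RNA per cell cannot be told apart.

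The start regions of the 4 genes differed in CpG content, described here because these sequences are themselves possible sites of the methylation that the genes lay down. In RefSeq windows of 300 bases around annotated starts (GRCm38.p6), Tet2 (chromosome 3, gene at 133463677 to 133545136, minus strand) had 57 CG dinucleotides, a count reached by 0.152% of the 32851 windows. Dnmt3a (chromosome 12, 3801559 to 3914443) had 46 at the first of its 3 listed starts, reached by 1.65% of windows, and 47 and 18 at the others. Dnmt3b (chromosome 2, 153649411 to 153687730) had 30, reached by 11.7% of windows, and Dnmt3l (chromosome 10, 78042287 to 78063622) had 6, 4 and 3, of which 6 is reached by 56.4%. The bases before the outermost annotated start are printed for Dnmt3b, a catalytic enzyme, and Dnmt3l, its cofactor, whose RNA followed different courses below. They are 5′ to 3′ on the plus strand with each CG in capitals, at chr2:153649199-153649410 with 16 CG in 212 bases and at chr10:78042037-78042286 with 5 CG in 250 bases.

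Dnmt3b: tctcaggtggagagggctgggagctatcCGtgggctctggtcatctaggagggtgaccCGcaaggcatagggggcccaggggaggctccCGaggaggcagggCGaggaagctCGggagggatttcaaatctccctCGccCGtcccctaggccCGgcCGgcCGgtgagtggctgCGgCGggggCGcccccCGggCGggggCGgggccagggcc

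Dnmt3l: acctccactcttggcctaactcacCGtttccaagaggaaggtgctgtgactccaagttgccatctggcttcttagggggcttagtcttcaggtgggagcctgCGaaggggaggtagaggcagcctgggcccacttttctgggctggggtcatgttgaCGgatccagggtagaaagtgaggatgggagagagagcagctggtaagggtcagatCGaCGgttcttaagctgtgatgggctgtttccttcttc

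The letters describe these windows only, and neither window was tested for a bound factor. Windows before starts that lie inside a longer annotated transcript, those of Dnmt3a and Tet2, are given by their counts alone.

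**Figure D1:**
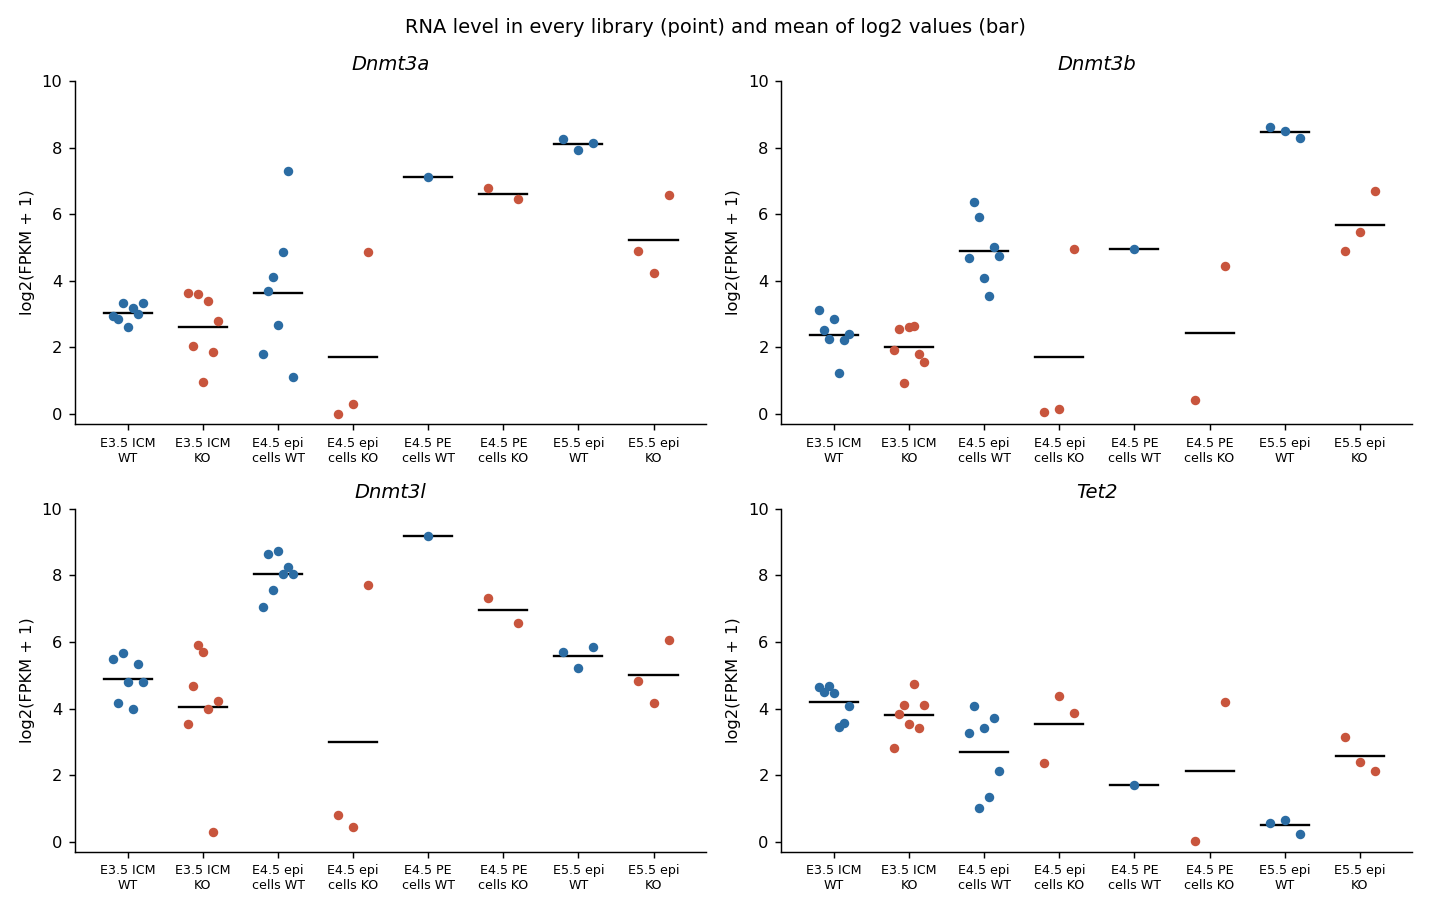
The 4 panels plot log2(FPKM + 1) of Dnmt3a, Dnmt3b, Dnmt3l and Tet2 in each of 33 libraries (points; WT blue, KO red) by stage and cell type, with a bar at the mean of the log2 values. At E5.5 the KO points of Dnmt3a and Dnmt3b lie below and those of Tet2 above the WT points, while Dnmt3l is highest in WT E4.5 cells.

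The first comparison asked how the 4 genes changed in WT embryos from the ICM to the E5.5 epiblast. The catalytic enzymes rose steeply, Dnmt3l did not pass the test, and Tet2 fell to a trace. Dnmt3a had 5.08, 7.01 and 9.10 FPKM (lowest, median and highest of 7) in WT ICM, and 306.6, 244.5 and 281.0 FPKM in the 3 WT E5.5 epiblasts. Dnmt3b had 1.33, 4.30 and 7.67 FPKM in WT ICM and 395.0, 361.4 and 314.9 FPKM at E5.5. For both enzymes the stages did not overlap, and the ratio of means was 37.8 for Dnmt3a and 79.0 for Dnmt3b. The limma log2 change was 5.08 (SE 0.23, adjusted p = 1.34e-09) for Dnmt3a and 6.11 (SE 0.34, adjusted p = 1.28e-08) for Dnmt3b.

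Tet2 ran the other way, from 9.78, 21.1 and 24.7 FPKM (lowest, median and highest) in WT ICM to 0.481, 0.586 and 0.180 FPKM at E5.5. Its mean at E5.5 was 2.27% of that in the ICM. The log2 change of FPKM + 1 was -3.71 (SE 0.33, adjusted p = 9.13e-07 with limma). With WT E5.5 all under 1 FPKM, Tet2 passed the filter only through the ICM libraries and the pseudocount shrank this change. Over the alternatives it ran from -5.18 to -2.06. Dnmt3l had 14.8, 26.5 and 50.1 FPKM in WT ICM and 50.6, 35.9 and 57.2 FPKM at E5.5, so the stages overlapped, and its log2 change was 0.70 (95% interval -0.07 to 1.47, adjusted p = 0.112). Thus 2 of the 4 genes were called higher and 1 lower, where 56.3% of the 6022 genes tested were called (37.3% higher and 18.9% lower). With array weights Dnmt3l would be called as higher, at 0.67 (adjusted p = 0.0261 with limma).

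At E3.5 the question was whether loss of Rbbp5 changed the 4 genes in the ICM. None of them was called or had an unadjusted p under 0.05, where limma called 28.3% of 5443 genes (3.44% higher and 24.9% lower). Dnmt3a had 0.947, 5.89 and 11.4 FPKM (lowest, median and highest of 7) in KO ICM, and 3 of the 7 libraries lay below and 3 above the WT range. Dnmt3b had 0.889, 2.80 and 5.27 FPKM in KO ICM, with 1 library below the WT range. Dnmt3l had 0.224, 17.6 and 59.0 FPKM and Tet2 6.04, 13.3 and 25.4 FPKM. The KO libraries of all 4 genes overlapped the WT libraries, and for Dnmt3a, Dnmt3l and Tet2 some lay below and some above the WT range (2 below and 2 above for Dnmt3l, 2 below and 1 above for Tet2).

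The log2 change in KO ICM was -0.43 for Dnmt3a (95% interval -1.30 to 0.44, adjusted p = 0.437), -0.36 for Dnmt3b (-1.15 to 0.43, 0.464), -0.84 for Dnmt3l (-2.17 to 0.49, 0.316) and -0.40 for Tet2 (-1.11 to 0.30, 0.361), all with limma. The median of all genes tested was -0.65, so relative to it the 4 genes stood at 0.23, 0.29, -0.19 and 0.25. Under quantile normalization Dnmt3a, Dnmt3b and Tet2 changed sign, to 0.31, 0.42 and 0.23. No direction can therefore be given for these 3 genes in the ICM, and the intervals allow a change of 2-fold or more downward. Trophectoderm markers summed to 7.91 to 57.0 FPKM in KO ICM and 43.5 to 835.7 FPKM in WT ICM, with 4 of 6 tested lower, and their part in these values was not tested.

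**Figure D2:**
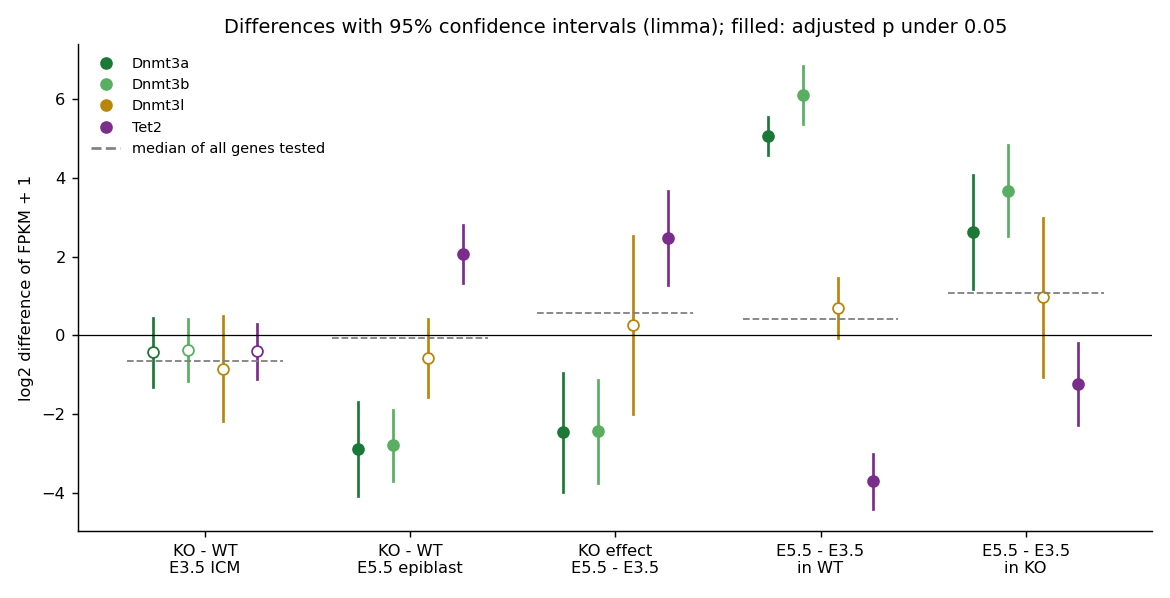
Points give the limma log2 difference of FPKM + 1 of each of the 4 genes in the 5 comparisons, with 95% confidence intervals; filled points have an adjusted p under 0.05 and dashed lines give the median of all genes tested. The 4 open points of the ICM contrast with the filled points of Dnmt3a, Dnmt3b and Tet2 at E5.5, at -2.89, -2.79 and 2.07.

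At E5.5 the KO epiblast had less Dnmt3a and Dnmt3b RNA than WT and more Tet2 RNA, while Dnmt3l did not pass the test. Of the 5956 genes tested, 34.1% were called (15.6% higher and 18.5% lower), and so were 3 of the 4 genes. Dnmt3a had 28.5, 17.7 and 94.4 FPKM in KO epiblasts 1, 2 and 3, against 244.5 to 306.6 FPKM in WT. Each of the 3 KO values lay below each WT value, and the KO mean was 16.9% of the WT mean. The log2 change was -2.89 (SE 0.52, adjusted p = 0.00460 with limma).

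Dnmt3b had 28.9, 43.1 and 102.4 FPKM in the KO epiblasts against 314.9 to 395.0 FPKM in WT. The groups did not overlap here either, and the KO mean was 16.3% of the WT mean, a log2 change of -2.79 (SE 0.40, adjusted p = 0.00145 with limma). KO 3 had the highest value of both enzymes in its group.

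Dnmt3l, the cofactor, had 27.2, 17.1 and 65.3 FPKM in KO and 50.6, 35.9 and 57.2 FPKM in WT. KO 1 and KO 2 lay below and KO 3 above the WT range, and the log2 change was -0.57 (95% interval -1.55 to 0.41, adjusted p = 0.341 with limma). Without KO 3 it was -1.09 (adjusted p = 0.0108), so that library decides the call.

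Tet2 had 7.91, 4.29 and 3.38 FPKM in KO against 0.481, 0.586 and 0.180 FPKM in WT. Each KO value lay above each WT value, and the KO mean of 5.20 FPKM was 12.5-fold the WT mean of 0.416 FPKM. The log2 change was 2.07 (SE 0.33, adjusted p = 0.00139 with limma). With the WT libraries all under 1 FPKM, Tet2 passed the filter on low values only through the KO libraries, and its log2 change rests on the pseudocount, being 3.37 with 0.1 and 0.89 with 5 in place of 1. The KO level stayed under the 14.0 FPKM mean of KO ICM.

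Markers of other tissue moved with these differences. All 7 tested trophectoderm markers were called higher in KO E5.5 epiblast, and the 8 markers in the table summed to 1153 to 2424 FPKM in KO against 76.2 to 120.6 FPKM in WT. Of 7 listed markers of extraembryonic ectoderm, the trophoblast tissue beside the epiblast, 3 were in the table, Elf5, Rhox6 and Rhox9. They were higher too and summed to 49.5 to 90.4 FPKM against 0 to 0.508 FPKM, and Elf5 is also among the trophectoderm markers. Elf5, a trophoblast transcription factor, had 30.1 to 33.4 FPKM in KO and at most 0.0451 FPKM in WT. Cdx2 was at 0 in all WT, reached 3.21 FPKM in KO and fell under the filter. Gata3, Krt7, Elf5, Rhox6 and Rhox9 averaged under 1 FPKM in WT and passed the filter only through the KO libraries. A call as higher was then the only one open to them, so these counts add little to the levels. The 10 epiblast markers summed to 267.0, 343.2 and 525.8 FPKM in KO 1, 2 and 3 and to 1094 to 1235 FPKM in WT, and 5 of 8 tested were lower and 1 higher. Pou5f1, the core pluripotency factor, had 9.84 FPKM on average in KO and 139.9 FPKM in WT.

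KO 3, with the highest epiblast marker sum, had the highest Dnmt3a, Dnmt3b and Dnmt3l, and KO 1, with the highest trophectoderm sum, had the highest Tet2. Per 100 FPKM of summed epiblast markers, Dnmt3a stood at 10.7, 5.15 and 17.96 FPKM in KO against 22.3 to 24.9 in WT, and Dnmt3b at 10.8, 12.6 and 19.5 against 27.9 to 33.0. On that scale Dnmt3l was at 10.2, 4.99 and 12.4 in KO against 3.28 to 5.07 in WT, and Tet2 at 2.96, 1.25 and 0.644 against 0.0160 to 0.0536. The enzymes thus remained lower and Tet2 higher in each KO library on this scale, by a smaller margin for the enzymes. That outcome depends on the markers summed. Pou5f1 was further below WT than the enzymes were, at a mean of 9.84 against 139.9 FPKM. Set against Pou5f1 alone, the mean of neither enzyme would be lower in KO. Esrrb, also in the sum, was higher in KO, at a mean of 3.95 against 0.0397 FPKM. These scaled values are descriptions, and the part of tissue composition in the results was not tested.

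The effect of the knockout was then compared between the stages in a fit over the 20 embryo libraries, in which 14.0% of 5917 genes were called. The difference, E5.5 minus E3.5, was -2.46 for Dnmt3a (SE 0.73, adjusted p = 0.0265), -2.43 for Dnmt3b (SE 0.63, adjusted p = 0.0126) and 2.48 for Tet2 (SE 0.57, adjusted p = 0.00590), all with limma. For Dnmt3l it was 0.27 (95% interval -1.99 to 2.53, adjusted p = 0.895). The median over all genes was 0.56, so relative to it Dnmt3a, Dnmt3b and Tet2 stood at -3.02, -2.99 and 1.92. Leaving out any single E5.5 library except KO 3 ended the call of Dnmt3a, with adjusted p between 0.0553 and 0.104, and leaving out KO 1 ended that of Dnmt3b (-2.04, adjusted p = 0.0674). A pseudocount of 0.1 ended both, at -2.35 (adjusted p = 0.0956) and -2.34 (adjusted p = 0.0689), and quantile normalization ended that of Tet2 (1.45, adjusted p = 0.0517).

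Between E3.5 and E5.5 KO embryos also gained Dnmt3a and Dnmt3b and had less Tet2, in a comparison that shares its libraries with those above. The mean of Dnmt3a went from 6.38 to 46.9 FPKM, a ratio of 7.35, and that of Dnmt3b from 3.34 to 58.1 FPKM, a ratio of 17.4. The log2 changes were 2.62 (SE 0.67, adjusted p = 0.00637) and 3.68 (SE 0.54, adjusted p = 0.000148). For Dnmt3l the change was 0.97 (adjusted p = 0.404), and for Tet2 it was -1.23 (SE 0.48, adjusted p = 0.0478), all with limma. In this comparison 48.5% of 5604 genes were called (39.8% higher and 8.67% lower), with a median of 1.08 over all genes. The call of Tet2 ended without KO ICM 2, 3, 5 or 7 and without each of the 3 KO E5.5 libraries (-1.53 to -1.02 over all such fits), and that of Dnmt3a without KO E5.5 library 3 (1.94, adjusted p = 0.0620).

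At E4.5 the genes were read in single epiblast cells. Their embryos of origin are not labelled, which leaves 1 sample per genotype and no test. Dnmt3l was the most abundant of the 4 in each WT cell, with 132.0, 264.1 and 427.5 FPKM (lowest, median and highest of 7). Dnmt3b had 10.6, 25.8 and 81.4 FPKM and Dnmt3a 1.15, 12.0 and 154.9 FPKM in WT cells, the last value in WT cell 6 alone. Tet2 had 1.03, 8.64 and 15.9 FPKM.

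The 3 KO epiblast cells did not resemble each other. In KO cells 1 and 2 Dnmt3a, Dnmt3b and Dnmt3l together came to 0.808 and 0.702 FPKM, against 159.3 to 491.3 FPKM in WT cells, and each gene lay below its WT range. In KO cell 3 the sum was 266.0 FPKM and each of the 3 genes lay within the WT range, with Dnmt3l at 207.9 FPKM. Tet2 had 4.20, 19.7 and 13.6 FPKM in KO cells 1, 2 and 3, of which cell 2 lay above the WT range. So the 2 cells with almost no DNMT3 transcript had Tet2 within or above the WT range. Near-absence in 2 of the 3 KO cells was not particular to the DNMT3 genes. Dnmt1, of the gene lists used below, had 0.0341, 0.0990 and 40.7 FPKM (lowest, median and highest) in KO cells against 7.54 to 50.2 in WT cells. Mbd3 had 0.243, 0.380 and 72.7 against 9.50 to 114.9 FPKM. Other list genes, such as Cxxc1 at 18.4 to 43.7 FPKM, were present in all 3 KO cells.

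The 10 epiblast markers summed to 2710, 2901 and 1384 FPKM in KO cells 1, 2 and 3, against 1589 to 2423 FPKM in WT cells. Of these markers 9, 9 and 8 reached 1 FPKM in the KO cells, and 9 to 10 in WT cells. The sums hide members that moved both ways. Lefty2 was at 0 in all 3 KO cells against 14.6 to 298.2 FPKM in WT cells, whereas Nanog averaged 556.1 against 142.0 FPKM. Trophectoderm markers summed to 232.2, 334.0 and 137.1 FPKM in KO cells against 48.9 to 128.0 FPKM in WT cells, and primitive endoderm markers to at most 3.63 FPKM in KO cells. KO cells 1, 2 and 3 had 3026, 3628 and 3056 genes at 1 FPKM or more, and WT cells had 3878 to 4682. The part of these differences in the DNMT3 values was not tested.

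In primitive endoderm cells, an extraembryonic lineage of the late blastocyst, the single WT cell had 138.6 FPKM of Dnmt3a, 29.7 of Dnmt3b, 581.7 of Dnmt3l and 2.25 of Tet2. KO cells 1 and 2 had 108.8 and 86.0 FPKM of Dnmt3a and 159.5 and 94.7 FPKM of Dnmt3l. They had 0.333 and 20.9 FPKM of Dnmt3b and 0.0250 and 17.2 FPKM of Tet2. Primitive endoderm markers summed to 2719 FPKM in the WT cell and to 849.6 and 479.3 FPKM in KO cells, beside epiblast markers at 1100, 341.8 and 718.9 FPKM. With 1 WT cell there is no spread to set these values against.

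Over all groups the order of the mean levels differed by gene, with the caution that embryo and single-cell columns may have been scaled separately. Dnmt3a and Dnmt3b were highest in WT E5.5 epiblast, whose range no other group reached, and lowest in KO ICM, whose range overlapped that of WT ICM. Dnmt3l was highest in the WT primitive endoderm cell and in WT E4.5 epiblast cells (mean 281.9 FPKM), and from there down to KO ICM each group overlapped the next. Tet2 was highest in WT ICM, with each group overlapping the next down to KO E5.5 epiblast, and its mean was lowest in WT E5.5 epiblast, where only KO primitive endoderm cell 1, at 0.0250 FPKM, was lower.

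The makeup of the family changed with stage. Dnmt3l held 60.7% to 79.6% of the summed FPKM of the 3 DNMT3 genes in WT ICM and 62.1% to 95.3% in WT E4.5 epiblast cells, but 5.59% to 8.76% in WT E5.5 epiblast. At E5.5 the enzymes Dnmt3b and Dnmt3a held 48.2% to 56.3% and 38.1% to 43.0% in WT. In KO E5.5 epiblast Dnmt3l held 32.1%, 22.0% and 24.9%, each above each WT value, of sums of 84.6, 77.9 and 262.2 FPKM against 641.8 to 752.1 FPKM in WT. The share of Dnmt3l in KO ICM ran from 4.22% to 89.5%, wider than in WT ICM on both sides. These shares are descriptions without a test.

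**Figure D3:**
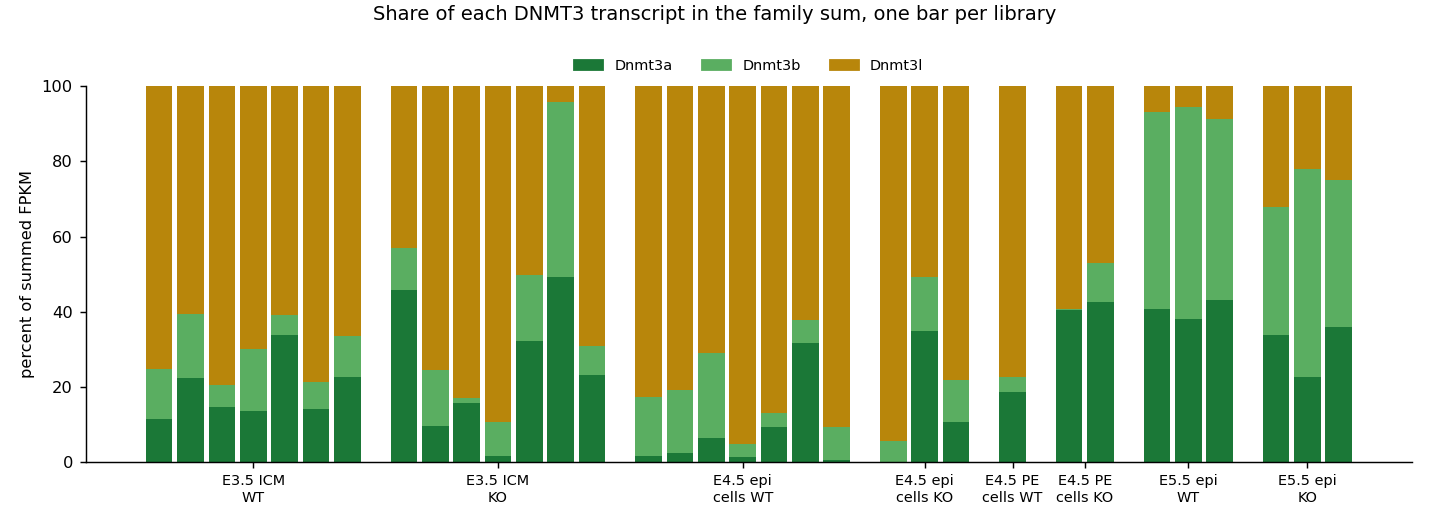
Each stacked bar is 1 of 33 libraries and divides the summed FPKM of Dnmt3a, Dnmt3b and Dnmt3l into percent, grouped by stage, cell type and genotype. Dnmt3l fills most of the bar in WT ICM and E4.5 epiblast cells and 5.59% to 8.76% of it in WT E5.5 epiblast; KO E4.5 epiblast cells 1 and 2 have sums under 1 FPKM, so their shares carry little information.

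The genes with the most similar pattern were ranked by Pearson's r of log2(FPKM + 1) over the 20 embryo libraries, among 3792 genes whose mean reached 10 FPKM in a group. Those libraries fall into stage and genotype clusters, so r mainly reads the clusters and is a description. Nearest to Dnmt3a were Phc1, a Polycomb protein (r = 0.960), the transcription factor Etv1 (0.947) and Nnat (0.946). Nearest to Dnmt3b were Pacsin3 (0.979), again Etv1 (0.978) and Myo10, an unconventional myosin (0.972). Nearest to Tet2 were Fbxo15 (0.945), known as a marker of undifferentiated embryonic stem cells, the transcription factor Klf5 (0.937) and the tetraspanin Cd63 (0.935). Dnmt3l had no neighbour as close, its highest being Mul1 (0.815), Ascc1 (0.799) and Med20 (0.788). Among the 4 genes r was 0.906 for Dnmt3a with Dnmt3b, -0.861 and -0.875 for these with Tet2, and 0.402 and 0.377 for these with Dnmt3l.

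Over the 10 E4.5 epiblast cells the pairs differed. There r was 0.917 for Dnmt3b with Dnmt3l, 0.674 for Dnmt3a with Dnmt3l and 0.636 for Dnmt3a with Dnmt3b, in points that include KO cells 1 and 2. Tet2 had r of -0.02, -0.10 and -0.15 with Dnmt3a, Dnmt3b and Dnmt3l. The nearest other genes were H3f3a for Dnmt3a (0.934), Uxt for Dnmt3b (0.971), Guk1 for Dnmt3l (0.986) and Sdhaf2 for Tet2 (0.884).

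The genes that work beside the DNMT3 enzymes and Tet2 were read from 6 lists. Of the genes listed, those in the table were 7 of 11 for maintenance methylation, 14 of 20 for demethylation and 12 of 15 for regulators. They were 7 of 11 for CpG-binding proteins, 9 of 11 for S-adenosylmethionine supply and 9 of 22 for germline genes. The counts below therefore cover only part of each list. In WT development, where 37.3% of all genes rose and 18.9% fell, 6 of 7 tested genes of maintenance methylation rose and none fell, with a median log2 change of 1.86 against 0.43 over all genes. Among them were Dnmt1, the maintenance methyltransferase (2.86), Uhrf1, which recruits it to replicated DNA (3.09), and the remodeller Hells (3.09). Of the 11 tested regulators of the de novo enzymes 9 rose and 2 fell, led by Mycn (5.98) and Otx2 (5.26). Tet1, the sister enzyme of Tet2, rose by 2.00 (adjusted p = 1.40e-05 with limma), opposite in direction to Tet2, among 5 genes of demethylation that rose and 1 that fell of 14, close to the share over all genes. The list of CpG-binding proteins holds Mbd1, Mbd2 and Mbd3 of the methyl-CpG-binding domain family and Cxxc1, Cxxc5, Kdm2a and Kdm2b, CXXC proteins known to bind unmethylated CpG. It had 6 of 7 higher, and genes of S-adenosylmethionine supply, the methyl donor, 6 of 9.

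At E5.5, 5 of the 6 lists had more genes lower than higher in KO, where 18.5% of all genes were lower and 15.6% higher. Maintenance genes had 6 of 7 lower in KO and none higher (median -0.90 against -0.07 over all genes), among them Uhrf1 (-1.38), Hells (-1.34), Setdb1 (-0.93) and Pcna (-0.57). CpG-binding proteins had 5 of 7 lower, such as Mbd3 (-1.06) and Cxxc1 (-1.40), a CpG-binding protein of an H3K4 methyltransferase complex. Regulators had 5 of 9 lower, including Lin28a (-2.998), Zscan10 (-2.81), Otx2 (-3.51) and Ehmt1 (-1.11). Otx2 is also a marker of the formative epiblast, and the marker sums given above move with these lists. S-adenosylmethionine supply had 5 of 9 lower, among them Mat2a, the enzyme that makes the donor (-1.54), Shmt2 (-1.42) and Mat2b (-1.38).

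Demethylation genes went both ways in KO E5.5 epiblast, with 4 of 14 higher and 3 lower. Gadd45g (2.04) and Gadd45b (1.85), stress-induced proteins linked to DNA repair, were higher like Tet2. Ung, a uracil glycosylase, was lower (-1.38), as was Tet1 (-1.11, adjusted p = 0.0361 with limma), named after its value was seen. Of 22 listed germline genes known to be silenced by promoter methylation, 9 were in the table and tested. Of these 9, 2 were higher, Xlr4a (2.19) and Xlr3a (1.37), and 5 lower, such as Mael (-1.86). The near-identical copies of the Xlr family make those values uncertain. Of the 24 genes named by rule at E5.5, 18 lost their call when the 4 embryo groups shared a fit, whereas Dnmt3a, Dnmt3b and Tet2 kept theirs. Pcna, Xrcc1, Cxxc5, Kdm2a and Tuba3a lost it without single libraries, with adjusted p between 0.0521 and 0.121.

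In the ICM no list had a gene called higher in KO, and over all genes 3.44% were higher and 24.9% lower. Lower were 2 of 7 maintenance genes (Uhrf2, -1.53, and Hells, -0.95), 7 of 14 demethylation genes (such as Idh2, -2.22, and Neil1, -1.77), 3 of 10 regulators and 1 of 6 CpG-binding proteins. S-adenosylmethionine supply had 6 of 9 lower, led by Mat2a (-1.98), and germline genes 2 of 7. The counts of the maintenance, regulator, CpG-binding and germline lists lie near the share over all genes. The medians were -0.63, -1.14, -0.66, 0.09, -1.31 and -0.66 in that order, against -0.65 over all genes, so of the 6 only demethylation and S-adenosylmethionine supply lay well below it. Quantile normalization ended 13 of the 16 calls named by rule, and a covariate for detected genes ended all 16.

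**Figure D4:**
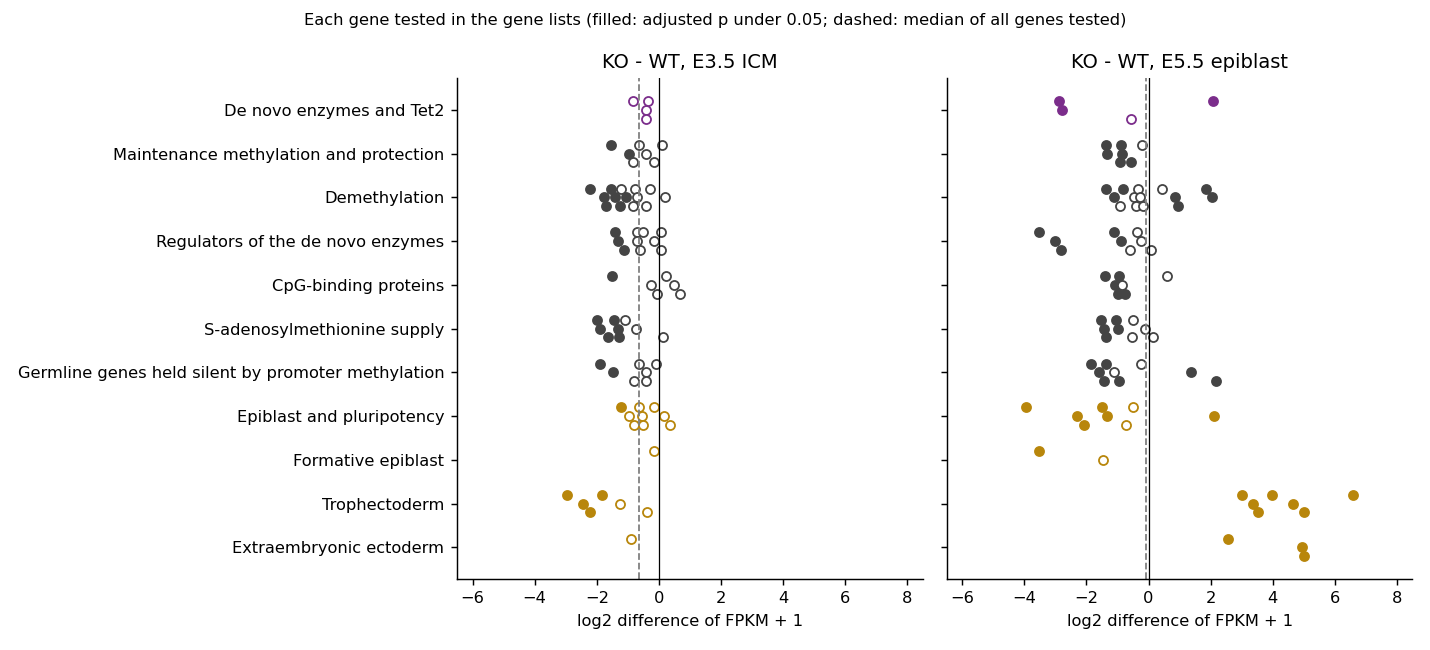
Each point is a tested gene of the lists, with its limma log2 difference of FPKM + 1, KO minus WT, in E3.5 ICM (left) and E5.5 epiblast (right); filled points have an adjusted p under 0.05 and the dashed line is the median of all genes tested, -0.65 and -0.07. At E5.5 the maintenance, regulator and CpG-binding lists lie mostly to the left and the trophectoderm list, with 7 of 7 called higher, to the right. In the trophectoderm list Gata3, Krt7 and Elf5 passed the filter at E5.5 only through the KO libraries.

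Between the stages the knockout effect differed for 5 of the 57 list genes tested (8.77%), where 14.0% of all genes were called, so the count says nothing particular about the lists. It was more positive at E5.5 for Ogt (2.19), which modifies TET proteins with a sugar, for Idh1 (1.93), which makes the TET cosubstrate, and for Xlr4a (2.60), against a median of 0.56 over all genes. It was more negative for Otx2 (-3.34) and Lin28a (-2.30). Each of the 5 calls ended under at least 1 alternative. A covariate for detected genes ended those of Ogt (adjusted p = 0.0502) and Idh1 (0.0521) and also those of Otx2 (0.126) and Xlr4a (0.196), with limma. The calls of Otx2, Lin28a and Xlr4a ended without single libraries too, with adjusted p between 0.0501 and 0.121, and a pseudocount of 0.1 ended those of Otx2 (0.385) and Lin28a (0.448).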

How the data were processed

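The deposited expression values are FPKM in a table of 7186 lines, in which 2 repeated names (4 lines) were left out. The submitters' processing notes list Bismark, HOMER 4.10.4, MACS2 2.2.6, Bowtie2 2.3.5, STAR 2.7.3, Trim Galore 0.6.4 and mm10, with no role for each. The sources used here do not name the program that made the FPKM. The methylation tables, as deposited, give for each CpG position a read count, a methylated count and their percent. Chromatin libraries (7 H3K4me3, 2 ATAC) are not analysed here.

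The 4 genes and the gene lists were chosen with earlier results of these data known. Each of the 5 comparisons was fitted in limma 3.58.1 (R 4.3.3) on log2(FPKM + 1), with trend and robust empirical Bayes, over genes averaging 1 FPKM or more in that fit, without covariates. P values were adjusted by Benjamini-Hochberg over all genes tested. The pseudocount of 1 understates changes of low genes. Replicates at E3.5 and E5.5 were taken as separate embryos, and those at E4.5 are single cells with no embryo labelled. From each list up to 4 called genes with the smallest p were named. Low values were looked at for whole-read steps, but between library pairs only 2.86% to 15.2% of low genes shared a ratio, so no counts were recovered.

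Intervals for methylation are exact Clopper-Pearson at 95% and cover counting error only. They treat the reads of a cell as independent draws, which reads outnumbering the copies in a cell are not, and so are too narrow. CG dinucleotides were counted in RefSeq promoter windows (GRCm38.p6). The code was tested on simulated data. Alternatives were pseudocounts of 0.1 and 5, no filter or one of 5 FPKM, quantile normalization, median ratio scaling, array weights, a replicate block, detected genes as a covariate, the 4 embryo groups in 1 fit, leaving out KO ICM 1, 4 and 6 together, leaving out each library, and 10 or 20 reads per position.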

Additional observations from a re-analysis of the deposited data

Results flagged for a closer look

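Of 12 sets of 7 values (4 genes in WT ICM, KO ICM and WT E4.5 epiblast cells), 1 had a value far from the others: Dnmt3a in WT E4.5 epiblast cell 6, at 154.9 FPKM, where the next highest WT cell had 28.3 FPKM. For normally spread values chance would give about 1 in 20 such sets. FPKM values need not be spread so, and the rate for them is not known. The same cell had 31.1 FPKM of Dnmt3b and 305.3 FPKM of Dnmt3l, both inside the range of the other cells.

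The knockout effect at E5.5 differed from that at E3.5 (limma interaction, log2 scale) for Dnmt3a by -2.46, for Dnmt3b by -2.43 and for Tet2 by 2.48. Among the list genes it differed for Ogt by 2.19, for Idh1 by 1.93, for Xlr4a by 2.60, for Otx2 by -3.34 and for Lin28a by -2.30, and each of these 5 calls ended under at least 1 alternative. Trophectoderm markers, of which 7 of 7 tested had a higher knockout effect at E5.5, moved with these differences, and their part in them was not tested. Elf5, among these markers, passed the filter only through the KO E5.5 libraries.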

How the results depend on the processing

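Under the alternatives tried, the E5.5 calls of Dnmt3a, Dnmt3b and Tet2 kept their direction and stayed under 0.05, with log2 changes of -3.56 to -2.22, -3.30 to -2.37 and 0.89 to 3.37, except that Tet2 could not be tested with the filter of 5 FPKM. The rises of both enzymes and the fall of Tet2 in WT development did so too. The limits are 3 embryos per genotype at E5.5, an unknown depth, 3 KO cells at E4.5, a knockout method not known per library, and tissue composition at E5.5, which cannot be told apart from the genotype.

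In the ICM, quantile normalization gave 0.31 for Dnmt3a, 0.42 for Dnmt3b and 0.23 for Tet2, with 708 genes called (357 higher, 351 lower) in place of 1540 (187 higher, 1353 lower). Median ratio scaling gave 0.027, 0.078 and 0.12, with 876 genes (414 higher, 462 lower). With detected genes as a covariate Tet2 was at 0.40 and limma called 0 genes, 314 having an unadjusted p under 0.05. Without KO ICM 1, 4 and 6 405 genes were called (77 higher, 328 lower), and without single libraries 946 to 1875, the fewest without WT ICM 1 and then WT ICM 4 (987).

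At E5.5 the 4 groups in 1 fit called 561 genes in place of 2032, and fits without single libraries 1205 to 2185, the fewest without WT 1 and then WT 2 (1293). Dnmt3l ran from -1.09 to -0.15 in those fits. The cause of these shifts was not tested.

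For the difference of effects, a pseudocount of 0.1 gave -2.35 for Dnmt3a, -2.34 for Dnmt3b and 520 genes in place of 827. Dnmt3l turned negative under quantile normalization (-0.38), median ratio scaling (-0.23), detected genes as a covariate (-0.33) and without KO ICM 1, 4 and 6 (-0.38). Tet2 was at 1.45 under quantile normalization. Array weights called 1664 genes and the covariate 446. Without single libraries Dnmt3a ran from -3.13 to -1.96, Dnmt3b from -2.93 to -2.04, Dnmt3l from -0.36 (without KO ICM 6) to 0.69, being -0.25 without KO E5.5 3, and the count from 458 to 1034, the fewest without KO E5.5 1 and then WT E5.5 1 (489) and 2 (496).

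The split of 627 higher and 200 lower became 407 and 398 under quantile normalization, 340 and 267 under median ratio scaling and 251 and 195 with the covariate.

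In development, array weights gave 0.67 for Dnmt3l in WT, and detected genes as a covariate left 2143 genes in WT in place of 3388 and 1103 in KO in place of 2717. In KO that covariate gave 1.72 for Dnmt3a (adjusted p = 0.225 with limma), -0.0082 for Dnmt3l, -0.22 for Xlr4a and -0.028 for Xlr3a. Tet2 in KO was at -1.38 with a pseudocount of 0.1 and at -1.53 to -1.02 without single libraries, and Dnmt3a at 1.94 to 3.12. The split in WT of 2247 higher and 1141 lower became 1655 and 1498 under quantile normalization and 1626 and 1453 under median ratio scaling. That in KO of 2231 and 486 became 1009 and 922, and 1098 and 762, and was 619 and 484 with the covariate.

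Replicate numbers showed no clear pairing in the ICM, where same-numbered WT and KO libraries correlated at -0.13 to 0.16 over 7 pairs (2 over 0.1). Of those 14 libraries 3 correlated best with their own number. At E5.5 the correlations were -0.02 to 0.12 over 3 pairs (1 over 0.1), and 4 of 6 libraries correlated best with their own number. With 3 libraries per genotype, pairing at E5.5 could not be decided. With the replicate block 1221 genes were called at E3.5 and 1950 at E5.5, and Dnmt3a, Dnmt3b and Tet2 at E5.5 had -2.89, -2.79 and 2.07. The block ended the call of Tet2 in KO development (-1.03, adjusted p = 0.205 with limma) and changed no other call of the 4 genes. Among the list genes it ended 7 calls, given here with the adjusted p of limma. For the difference of effects these were Otx2 (0.0565) and Lin28a (0.0548), and in the ICM Hells (0.0508) and Prdm14 (0.0511). In development they were Slc25a31 (0.05002) and Xlr4a (0.0942) in WT and Uhrf1 (0.0717) in KO. For the E4.5 cells and methylomes alone, no paired analysis was possible because no embryo of origin is labelled.

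In E4.5 epiblast cells the log2 ratio of medians, with 1 FPKM added to each, was -4.61 for Dnmt3b and -7.23 for Dnmt3l, and without single cells the ratio of means on the same scale ran from -4.86 to -0.19 for Dnmt3a, from -5.09 to -1.19 for Dnmt3b and from -7.50 to -1.43 for Dnmt3l, in each case the lowest without KO cell 3. With at least 10 reads per position, mean methylation was 88.44% and 88.53% in WT and 94.58% and 89.99% in KO cells. With at least 20 reads it was 94.44% and 95.04% in WT and 95.94% and 95.14% in KO cells, so the gap of KO cell 1 over WT narrowed.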

Other observations

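CpG methylation, which the DNMT3 enzymes lay down and DNMT1 maintains, was read in single E4.5 epiblast cells over the 74 positions that all 4 deposited tables share. Which enzyme accounts for the methylation at these positions was not tested. None of those positions lay in Dnmt3a, Dnmt3b, Dnmt3l or Tet2. The tables listed 204 positions in each WT cell and 188 and 217 in the KO cells, with 5 to 299 reads each, so they cover a very small part of the genome. The percentages are for these positions and do not give the level of the genome. Mean methylation over the shared positions was 84.6% and 81.9% in the WT cells and 92.3% and 84.3% in the KO cells. Over pooled reads it was 93.5% (95% interval 92.8 to 94.2) and 90.6% (89.8 to 91.4) in WT, and 96.2% (95.7 to 96.7) and 92.8% (92.0 to 93.4) in KO. These intervals treat reads as independent draws. Reads of a single cell reached 299 per position, more than a cell holds copies of a single-copy position. Such reads are not independent draws, so the intervals are too narrow. The values of KO cell 2 lay within or near those of the WT cells and those of KO cell 1 above them. With at least 20 reads per position KO cell 1 stood at 95.94% and the WT cells at 94.44% and 95.04%. With 2 cells per genotype and no embryo named there is no test. RNA and methylation were not measured in the same cells.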
